A study of Bos taurus with 64 samples.

Results

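Gene expression in the longissimus thoracis (LT), which supports the back, was compared with that in the semitendinosus (ST), a hind-limb muscle used in locomotion, in stressed cows. The samples are the 32 arrays that the labels call Moderated stress, of 64 arrays in all, with 16 arrays per muscle, and the cow number in the title pairs the LT and the ST of each cow. The animals were adult Normand cull cows of 4.5 years, finished on a lipid-rich ration of straw and concentrate. All 16 were stressed before slaughter by lorry transport in isolation, followed by 30 min in a labyrinth built in a farm they did not know. In this group 8 cows received the lipid-rich ration alone (label Lipid-rich, here the control diet) and 8 received it with vitamin E and plant extracts rich in polyphenols (label Lipid VitE PERP, here the EP diet), and both diets were pooled. The other 16 cows, handled with limited stress and fed the same 2 diets, served only for comparison. Each muscle was excised within 15 min of slaughter, so each cow gave a single time point. RNA was hybridised in a single colour (Cy3) to an Agilent array designed for muscle genes, and each array is the whole tissue of 1 muscle of 1 cow.

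Skeletal muscle is a mixture of fibre types. Slow fibres carry their own isoforms of myosin, troponin and the calcium pump, hold many mitochondria and draw on fatty acids, whereas fast fibres carry other isoforms, buffer calcium with parvalbumin and draw on glycogen and glucose. Muscles also keep marks of their place in the body, among them homeobox (Hox) genes set during development, and each muscle contains vessels, nerve endings, satellite cells (the resident stem cells), fat and connective tissue. In whole muscle, a lower number of cells of one type and less RNA per cell cannot be told apart.

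The arrays were comparable in depth: between 71.4% and 80.8% of the spots were well above background (median 76.6%), no spot was saturated, and the 75th percentile of the signals lay between 2470 and 4202 units. The levels given below are log2 signals relative to this percentile of the same array, so that 0 is the level of a spot at the percentile. Muscle was the main axis of the data: the first principal component, with 19.7% of the variance over 9847 probes, placed the LT arrays between 10.7 and 28.8 and the ST arrays between -36.3 and -3.25. Every one of the 32 arrays correlated better with the arrays of its own muscle than with those of the other. The second component (14.5%) set apart the 2 arrays of a single cow of the control diet, here the outlying cow (72.6 in the LT and 64.6 in the ST, against -15.5 to 5.49 for the other arrays), and counts are also given without this animal. Each slide and each scan day held arrays of 1 muscle only, 4 slides for the LT and 5 for the ST. Slide and scan day could therefore enter only as random effects, and beyond that they cannot be told apart from muscle.

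The array measures each transcript with probes of 60 bases, and the following stretches of 30 bases come from probes of genes on which the results turn. They are printed as the array files give them, with the coordinates of the files (build Btau_3.1), and capitals mark bases that a custom probe of the same gene also holds, so that 2 designs read the same stretch. The first group is of genes higher in the LT.
MYBPH (not placed in the files): ATCCAGGGTGATCCCAAATACCGAGCTCTC
MYBPHL (chr3:36801061-36801090, plus strand): agctgcacggtccccaacctcatcgtcggc
MICAL2 (chr15:39368476-39368505, minus strand): CCCTGTATTTTGCACACAGCGAAAAATGTT
HEYL (chr3:113530791-113530820, plus strand): attggtttccatggctgagggcacgtgtat
MYL6B (chr5:61730348-61730377, minus strand): AAAGCACGTTCCTGCCACTAGGAGGCTATT
ENSBTAT00000016117, described in the files as a Hox-C8 protein (chr5:28872665-28872694, minus strand): gtttctctttaatccttatttgacacgaaa
The second group is of genes lower in the LT, and MYF6 is a gene whose muscle difference depended on the slaughter condition.
PVALB (chr5:80832243-80832272, minus strand): TGACACCAATCTTCTGGAAAATGACAGAGA
ACKR4 (chr1:139185715-139185744, minus strand): atctgcatcaaacatctgcatttttcagaa
MOSPD1 (chrX:8807968-8807997, minus strand): taaccatttggggagcataaatcattaaat
MYF6 (chr5:12276109-12276138, plus strand): GTTACGTTAATATTTAGGAAGCCAGACCCA

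The muscles differed in a large share of the genes measured, mostly by small amounts. Of 3418 genes and unnamed probe sets tested, 1533 differed between the LT and the ST (44.9%), with 687 higher in the LT (20.1%) and 846 lower (24.8%). A call required an adjusted p under 0.1, in one direction, for 80% or more of the probes of a gene (limma on the within-cow differences, Benjamini-Hochberg over 10289 probes). The median size of the difference over the called genes was 0.34 on the log2 scale, and 1146 of them (74.8%) differed by under 0.5. The difference reached 2-fold for 65 genes (1.9%), 31 higher in the LT (0.907%) and 34 lower (0.995%). Some of these were tested although dim in 1 of the muscles. Among 3329 genes well above background in both muscles, 58 reached 2-fold, 25 higher in the LT and 33 lower. The arrays of the 2 muscles did not overlap at all for 15 genes (0.439%), 4 of them higher and 11 lower in the LT, and 227 called genes differed in the same direction in all cows measured. The 15 include CRHR2, which was well above background on only 1 of 16 LT arrays. Without the outlying cow the counts were 1473 called genes and 61 with a 2-fold difference. The median over all genes was -0.03, and the balance of directions depended on the scaling. A scaling modelled on the study's methods, in which the signals of an array are divided by the median over its control features, was run as an alternative. It is called control-feature scaling below. It used the 536 features marked as controls, fewer than the control probes the paper counts, so it may differ from the study's own scaling. Of the called genes 44.8% were higher in the LT, against 61.3% of 455 called genes with control-feature scaling and 60.8% of 1265 with no scaling. The control features had a median signal between 2.11 and 6.36 units, and the part of this scatter in the smaller count was not tested.

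The largest differences in favour of the LT, among genes with a symbol, were in a pair of myosin-binding proteins. MYBPH, a myosin-binding protein of the thick filament, ranged from -2.87 to 1.97 in the LT (median 0.64) and from -6.54 to -1.21 in the ST (median -3.96). The ranges overlapped, but the LT was the higher muscle in 16 of 16 cows, by 4.27 ± 1.19 (SD, n = 16), or 19.2-fold (limma, highest adjusted p of its 6 probes 7.04e-09). Its paralogue MYBPHL ranged from -5.32 to -1.62 in the LT (median -2.90) and from -6.90 to -4.55 in the ST (median -6.20), a difference of 2.77 ± 1.03 (SD, n = 16), again in every cow. MYL6B, an alkali light chain of myosin found in slow fibres, ranged from 0.99 to 3.89 in the LT (median 2.69) and from -1.29 to 3.25 in the ST (median 0.74). The muscles overlapped widely for it, and the LT was higher in 14 of 16 cows by 1.63 ± 1.32 (SD, n = 16).

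**Figure D1:**
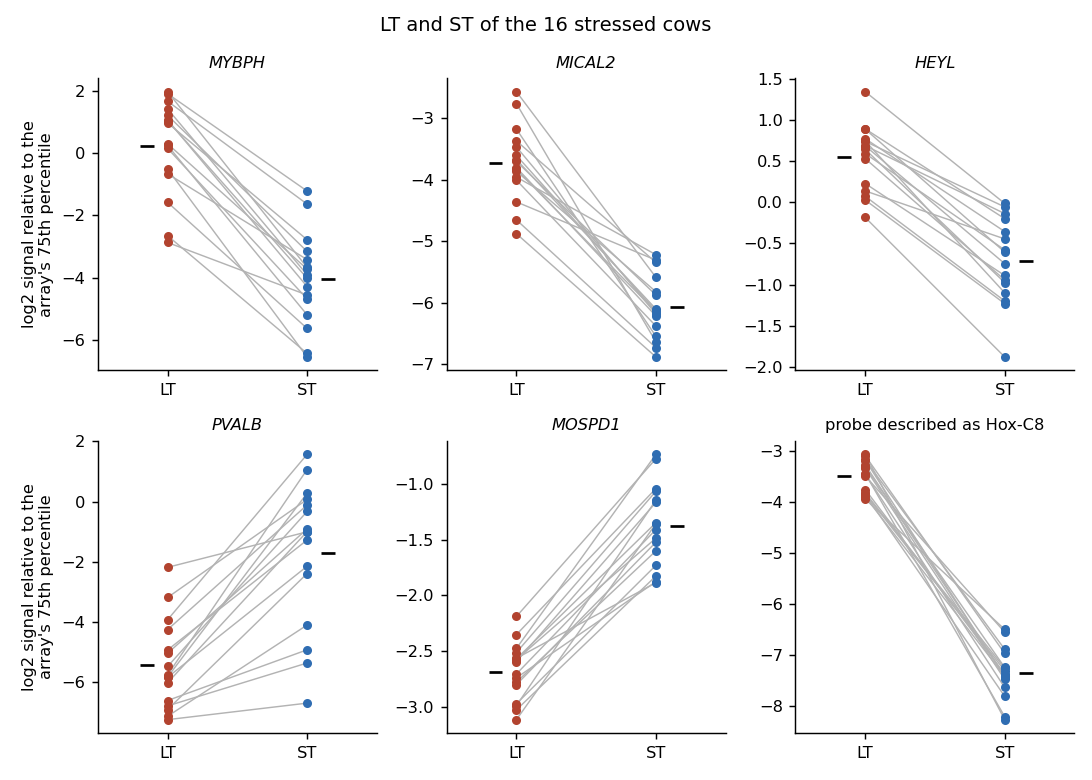
Levels of 6 genes in the LT (red) and the ST (blue) of the 16 stressed cows, as log2 signal relative to the 75th percentile of the array (vertical axis, different for each panel), with a grey line joining the muscles of a cow and a black bar at the mean of each muscle. The lines of MYBPH, MICAL2, HEYL and the probe described as Hox-C8 fall from LT to ST in 16 of 16 cows and those of PVALB and MOSPD1 rise in 16 of 16, and the muscles do not overlap for MICAL2, MOSPD1 and the Hox-C8 probe.

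Among the other large differences, MICAL2, a monooxygenase that oxidises actin, ranged from -4.88 to -2.57 in the LT (median -3.76) and from -6.89 to -5.22 in the ST (median -6.14). The muscles did not overlap, and the difference was 2.34 ± 0.71 (SD, n = 16), or 5.06-fold (limma, highest adjusted p 1.73e-04). HEYL, a transcriptional repressor of the Notch pathway, ranged from -0.18 to 1.34 in the LT (median 0.66) and from -1.88 to -0.01 in the ST (median -0.67). It overlapped by little and was higher in the LT of 16 of 16 cows, by 1.26 ± 0.34 (SD, n = 16; limma, adjusted p 4.00e-09). CHRNA1, the alpha subunit of the acetylcholine receptor of muscle, ranged from -2.89 to -1.57 in the LT (median -2.29) and from -4.73 to -2.55 in the ST (median -3.57), a difference of 1.34 ± 0.69 (SD, n = 16) that was positive in all cows. The LT was also the higher muscle in all 16 cows for MAOB, a mitochondrial monoamine oxidase (1.27 ± 0.50, SD, n = 16), and for RRAD, a small GTPase that restrains calcium channels (1.22 ± 0.50, SD, n = 16). ANXA9, an annexin, was higher by 1.54 ± 1.35 (SD, n = 16) in 13 of 16 cows and was above background on 12 of the 16 ST arrays. DTX4, a ubiquitin ligase of the Notch pathway, was not well above background on any ST array and was so on 9 LT arrays. Set against the lowest signal well above background on each ST array, the mean of its 16 measured LT values was 1.24-fold higher. That mean includes LT values not well above background, so 1.24 is no firm lower bound. The adjusted p of its measured levels (limma, 5.21e-06) rests on ST values below background and is no test of that 1.24-fold value.

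The probe ENSBTAT00000016117, chosen after its values were seen and known only by its description as a Hox-C8 protein, separated the muscles completely. It ranged from -3.95 to -3.07 in the LT (median -3.45) and from -8.27 to -6.50 in the ST (median -7.40). The muscles lay far apart without overlap, and the difference was 3.87 ± 0.63 (SD, n = 16), or 14.6-fold (limma, adjusted p 2.02e-12). It was well above background on 16 LT arrays and on 13 ST arrays. Of 55 patterning genes listed, 3 were found on the array by symbol, a count that leaves out the Hox-C8 probe, since the files give no symbol for it. None of the 3 was called: PAX7, of satellite cells, differed by -0.01 and did not pass, and TBX4 and EYA2 were too dim to be tested.

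Among genes with a symbol, the largest difference in favour of the ST was that of PVALB, parvalbumin, the calcium buffer of fast fibres. It ranged from -7.24 to -2.18 in the LT (median -5.79) and from -6.69 to 1.56 in the ST (median -1.001). The spread was wide in both muscles and the ranges overlapped, yet the LT was the lower muscle in 16 of 16 cows, by -3.74 ± 1.82 (SD, n = 16), or 13.3-fold (limma, highest adjusted p of 6 probes 6.20e-06). ACKR4, a chemokine receptor that scavenges its ligands, ranged from -8.14 to -5.38 in the LT (median -6.33) and from -8.41 to -2.32 in the ST (median -3.60), and differed by -2.80 ± 1.07 (SD, n = 15), with 1 cow left out for a spot that the software set aside. CRHR2, a receptor of the corticotropin-releasing factor family that was looked at after its values were seen, was above background on 1 of 16 LT arrays and 15 of 16 ST arrays. Its measured levels differed by -2.56 ± 0.96 (SD, n = 16), a value that rests on LT levels mostly below background.

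MOSPD1, a membrane protein with a major sperm protein domain, had the smallest spread between cows relative to its difference among called genes with a symbol. It ranged from -3.12 to -2.19 in the LT (median -2.65) and from -1.89 to -0.73 in the ST (median -1.38), with no overlap, and differed by -1.32 ± 0.31 (SD, n = 16; limma, adjusted p 9.15e-10). Next in regularity were HEYL and 3 genes that differed by under 2-fold and were lower in the LT of 16 of 16 cows: EIF5, a translation initiation factor (-0.77 ± 0.21), GPC1, a heparan sulfate proteoglycan (-0.69 ± 0.19), and FARP1, a guanine exchange factor (-0.76 ± 0.21; all SD, n = 16). Of the remaining genes with the largest differences in favour of the ST, SMAD9, a signal transducer of bone morphogenetic proteins (-1.80 ± 0.75), and CRYBB2, a crystallin (-1.69 ± 0.96), were lower in the LT of every cow. CACNA1B, the pore of a neuronal calcium channel (-1.46 ± 1.24), ALCAM, an adhesion molecule (-1.34 ± 0.95), and ACSM3, an acyl-CoA synthetase (-1.23 ± 1.38), were lower in 14 of 16 cows. HS3ST2, a heparan sulfate sulfotransferase, was lower in only 11 of 16 cows (-1.30 ± 1.68), and its call was lost with scan day as a random effect (adjusted p 0.110). MYH3, the embryonic myosin heavy chain, was lower in 13 of 16 cows (-1.22 ± 1.69) and was lost in the same setting (adjusted p 0.156).

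Genes of the slow fibre were higher in the LT, although not the slow myosin heavy chain. Of 14 slow fibre genes listed 9 were tested, and 7 were higher in the LT (77.8%) and none lower, with a median of 0.51. Over all genes 20.1% were higher and 24.8% lower, with a median of -0.03, and the shares given for each group below are to be read against these. After MYL6B came ATP2A2, the slow calcium pump (0.75 ± 0.96), TNNT1, slow troponin T (0.73 ± 0.64), and TNNC1, slow troponin C (0.54 ± 0.56; all SD, n = 16), the last with 5 of its 6 probes past the threshold and its call lost with scan day as a random effect (highest adjusted p 0.308). TNNT1 ranged from 4.69 to 5.84 in the LT (median 5.50) and from 3.56 to 5.74 in the ST (median 4.77), and was higher in the LT of 14 cows. MYH7, the slow myosin heavy chain itself, ranged from 5.68 to 6.27 in the LT (median 6.004) and from 5.19 to 6.34 in the ST (median 5.98). The muscles lay on top of each other for it: its difference of 0.11 ± 0.29 (SD, n = 16) did not pass, and its probes disagreed, from -0.12 to 0.46. MYL2, the slow regulatory light chain, did not pass either (0.22 ± 0.43).

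Of 16 fast fibre genes listed 10 were tested, and 3 were lower in the LT (30%) and 1 higher (10%), shares near or under those of all genes, with a median of -0.13. Besides PVALB the lower ones were MYLK2, the myosin light chain kinase of skeletal muscle (-0.45 ± 0.38, lower in 15 of 16 cows), and MYL1, an alkali light chain of fast fibres (-0.14 ± 0.16, SD, n = 15). MYH4, a fast myosin heavy chain, went the other way (0.37 ± 0.47, higher in 14 of 16 cows). The probe ENSBTAT00000008422, described in the files as fast skeletal troponin T and not counted in the list for want of a symbol, was also higher in the LT, by 1.38 ± 1.01 (SD, n = 16) in 15 of 16 cows. Other marks of fast fibres did not pass. MYH1 differed by -0.12 ± 0.14 (SD, n = 16) over 12 probes. They were placed under this symbol by name or by bases shared with a named probe, although 1 is described as myosin heavy chain 2a. Of the 12, 6 passed as lower in the LT, down to -0.41 (limma, lowest adjusted p 6.53e-05). ACTN3, fast alpha-actinin, differed by -0.14 ± 0.26, TNNC2, fast troponin C, by -0.12 ± 0.16, and ATP2A1, the fast calcium pump, by -0.23 ± 0.42 (all SD, n = 16). Under control-feature scaling 1 of the 10 was lower, none was higher, and the calls of MYLK2, MYL1 and MYH4 were lost. The myosin heavy chain genes are near-identical copies in long stretches, so signal shared between their probes cannot be split.

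**Figure D2:**
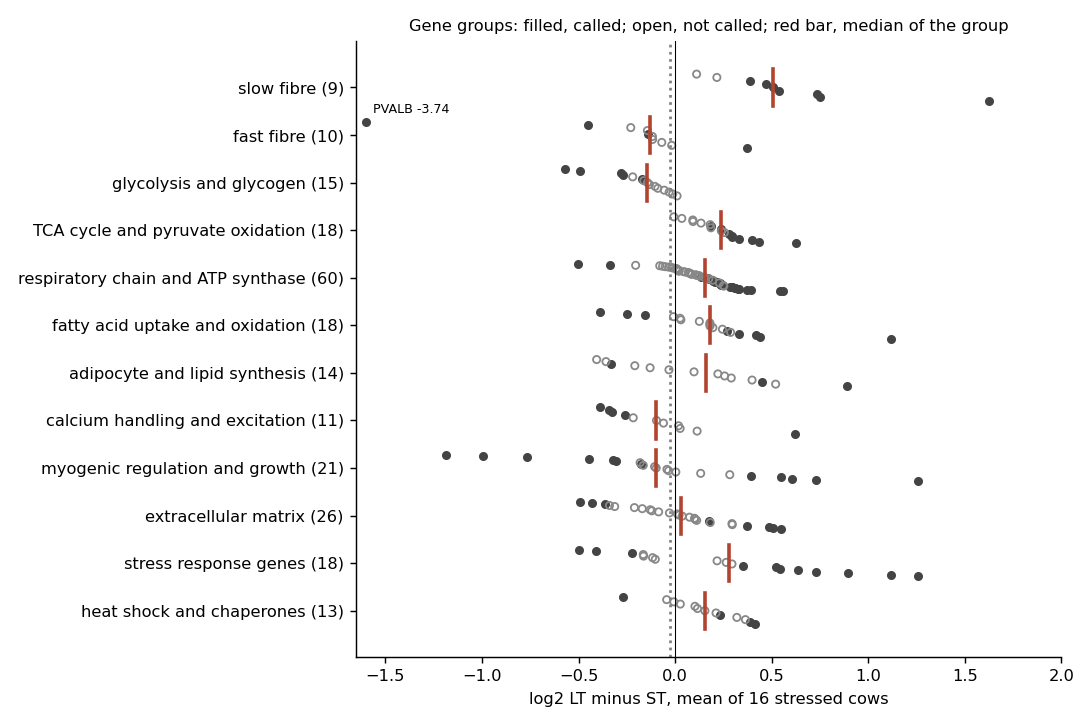
Mean LT minus ST difference of the 16 stressed cows on the log2 scale (horizontal axis) for each tested gene of 12 gene groups (rows, number tested in brackets). Filled points are called genes, open points did not pass, red bars are group medians and the dotted line is the median of all 3418 genes; PVALB (-3.74) is drawn at the left edge. The slow fibre group lies to the right with a median of 0.51, the 60 respiratory chain genes lie mostly between 0 and 0.5, and the glycolysis group lies to the left with a median of -0.14.

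Among genes of oxidative metabolism, those that passed were mostly higher in the LT, by small amounts, and about as many did not pass. Of 76 genes listed for the respiratory chain and ATP synthase, all 60 on the array were tested, and 27 were higher in the LT and 2 lower (45% and 3.33%, against 20.1% and 24.8% over all genes), with a median of 0.16. NDUFS6, a subunit of complex I, ranged from 1.11 to 1.74 in the LT (median 1.31) and from 0.56 to 1.23 in the ST (median 0.83), and was higher in the LT of 16 of 16 cows by 0.56 ± 0.22 (SD, n = 16; limma, highest adjusted p 7.30e-06). NDUFA3 (0.54 ± 0.30) and NDUFS1 (0.39 ± 0.37), of the same complex, were also higher. The 2 that were lower are subunits of complex I as well, NDUFC1 (-0.50 ± 0.60, lower in 11 of 16 cows) and NDUFB1 (-0.34 ± 0.47, lower in 9 of 16 cows). Without the outlying cow the counts were 24 higher and 2 lower, and with control-feature scaling 3 higher and none lower. In that scaling the median of the group was 0.21.

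Of 26 genes of the citric acid cycle and pyruvate oxidation 18 were tested, 9 of which were higher in the LT (50%) and none lower, with a median of 0.24. LDHB, the lactate dehydrogenase subunit of oxidative tissues, was higher by 0.62 ± 0.68 in 13 of 16 cows, and GOT2, the mitochondrial aspartate aminotransferase, by 0.43 ± 0.16 in 16 of 16 cows. DLAT, of the pyruvate dehydrogenase complex, was higher by 0.40 ± 0.30 and CS, citrate synthase, by 0.33 ± 0.20 (all SD, n = 16). Only 3 of the 18 passed with control-feature scaling, and CS did not (highest adjusted p 0.461). For glycolysis and glycogen, 5 of 15 tested genes were lower in the LT (33.3%, near the 24.8% of all genes) and none was higher (0% against 20.1%), with a median of -0.14. UGP2, which makes UDP-glucose for glycogen, ranged from 2.23 to 3.18 in the LT (median 2.48) and from 2.78 to 3.76 in the ST (median 3.01), and was lower in the LT of 16 of 16 cows by -0.49 ± 0.19 (SD, n = 16; limma, adjusted p 1.34e-06). SLC2A4, the insulin-regulated glucose transporter, was lower by -0.57 ± 0.38 in 15 of 16 cows. PHKG1, a phosphorylase kinase subunit (-0.28 ± 0.25), and PKM2, pyruvate kinase (-0.27 ± 0.41), were lower as well and lost their call with control-feature scaling, in which 2 of the 15 were lower. Without the outlying cow, 7 of the 15 were lower.

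Fatty acid genes were divided. Of 34 listed 18 were tested, 5 of which were higher in the LT and 3 lower (27.8% and 16.7%), with a median of 0.18. PDK4, the kinase that turns off pyruvate dehydrogenase when fat is burned, ranged from 0.55 to 3.57 in the LT (median 2.58) and from -1.05 to 3.72 in the ST (median 1.41). The overlap was wide, and the LT was higher in 13 of 16 cows by 1.12 ± 0.92 (SD, n = 16; limma, highest adjusted p 6.30e-04). HADHA (0.44 ± 0.31) and ETFA (0.42 ± 0.15, higher in 16 of 16 cows), which act in beta-oxidation and electron transfer, were higher, while UCP3, an uncoupling protein of muscle mitochondria, was lower (-0.39 ± 0.29, all SD, n = 16). PPARD was above background on 1 array and was not tested. Under control-feature scaling 3 were higher, none was lower, and the call of UCP3 was lost. Of 23 adipocyte and lipid synthesis genes 14 were tested, 2 of which were higher in the LT and 1 lower (14.3% and 7.14%). GPAM, which starts triglyceride synthesis, was higher by 0.89 ± 0.81 in 15 of 16 cows, and PPARG, the master regulator of fat cells, by 0.45 ± 0.69, a call lost with slide as a random effect (highest adjusted p 0.20). SREBF1, a regulator of lipid synthesis, was lower by -0.33 ± 0.32, a call lost with control-feature scaling (limma, highest adjusted p 0.494). The fat cell hormone ADIPOQ had a wide spread, from -8.42 to -3.07 in the LT and from -7.58 to -3.17 in the ST, and its difference of 0.52 ± 1.36 (SD, n = 16) did not pass.

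For calcium handling and excitation, 11 of 30 listed genes were tested, 1 of which was higher in the LT (9.09%) and 4 lower (36.4%). CACNB1, a subunit of the voltage sensor of muscle (-0.39 ± 0.41), SRL, sarcalumenin of the sarcoplasmic reticulum (-0.34 ± 0.17), and CLCN1, the chloride channel that keeps the membrane at rest (-0.33 ± 0.38, all SD, n = 16), were among the lower. With control-feature scaling 1 of the 11 was higher and none was lower. Of 12 genes of the neuromuscular junction 9 were tested, 3 of which were higher in the LT and 1 lower (33.3% and 11.1%). Besides CHRNA1, LRP4, the agrin receptor, was higher by 0.54 ± 0.32 and CHRNE, the adult receptor subunit, by 0.49 ± 0.33, while CHODL was lower in 16 of 16 cows by -0.54 ± 0.32 (all SD, n = 16). The summed linear level of the 9 was 1.26 to 2.72 times the 75th percentile in the LT and 1.05 to 2.47 times in the ST, and was higher in the LT of 15 of 16 cows. Among the junction genes named here CHRNE was the brightest, with mean log2 levels -0.01 (LT) and -0.50 (ST), so the sum is no even measure of the 9.

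Regulators of muscle development differed in both directions. Of 36 listed 21 were tested, 5 of which were higher in the LT and 7 lower (23.8% and 33.3%, near the 20.1% and 24.8% of all genes), with a median of -0.10. The largest in each direction were transcriptional repressors that act downstream of Notch: HEYL was higher in every cow, and HES1, from -2.55 to -0.93 in the LT (median -1.76) and from -2.08 to 0.51 in the ST (median -0.56), was lower in 15 of 16 cows by -1.19 ± 0.66 (SD, n = 16; limma, adjusted p 1.09e-05). MSTN, myostatin, the inhibitor of muscle growth, was lower in the LT of 13 of 16 cows (-0.995 ± 0.868, SD, n = 16), and SOX6, a repressor of slow fibre genes, was lower in 12 of 15 cows measured (-0.77 ± 0.77, SD, n = 15). Of the 4 myogenic regulatory factors, MYOG (0.73 ± 0.33, higher in 16 of 16 cows), MYF5 (0.55 ± 0.48) and MYF6 (0.39 ± 0.34) were higher in the LT. The fourth, MYOD1, differed by -0.04 ± 0.42 (SD, n = 16) and did not pass, and its sign turned with control-feature scaling (0.0081) and with no scaling (0.0277). In the former 4 of the 21 were higher and 3 lower, and MYF6 was not called.

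Markers of other cell types moved with muscle for the vessel wall. Of 13 vessel genes 8 were tested, and 6 were higher in the LT and none lower (75%), with a median of 0.33. MYH11, smooth muscle myosin (0.73 ± 1.03), TAGLN, transgelin (0.64 ± 0.43, with 1 probe of 6 in the other direction), CNN1, calponin (0.33 ± 0.61), and CAV1, caveolin (0.32 ± 0.34), were higher, and ACTA2, smooth muscle actin, whose probes disagreed, was not called (0.42 ± 0.34, all SD, n = 16). The summed linear level of the 8 was 7.58 to 17.8 times the 75th percentile in the LT (median 11.0, n = 15) and 5.94 to 15.4 times in the ST (median 8.50), and its part in the other differences was not tested. Among the vessel genes named here ACTA2 was by far the brightest, with mean log2 levels 2.66 (LT) and 2.24 (ST). CAV1 came next, with 0.81 (LT) and 0.48 (ST). The sum therefore rests largely on ACTA2, a gene that was not called, and is no even measure of the 8. Without the outlying cow, or with slide as a random effect, 5 of the 8 were higher and CNN1 lost its call (adjusted p 0.126 and 0.206). Control-feature scaling left 3 of the 8, without CNN1 and CAV1 (adjusted p 0.225 and 0.155), and with scan day as a random effect CNN1 and MYH11 were lost (highest adjusted p 0.275 and 0.188). For fibroblasts COL1A1 was lower and the other 5 tested markers did not pass, and the summed levels overlapped widely (2.02 to 7.13 in the LT, 1.77 to 15.2 in the ST).

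For satellite cells 6 of 10 markers were tested, and the summed level was higher in the LT of only 1 of 16 cows (0.365 to 0.699 in the LT, 0.333 to 0.815 in the ST). Single markers nevertheless went both ways, with MYF5 and SDC3 (0.35 ± 0.30) higher, and CDH15, M-cadherin (-0.31 ± 0.23), and CHODL lower. The leukocyte marker PTPRC (0.01) and the blood marker HBB (0.12) did not pass. Other defining markers were at or near background: ALAS2 was well above it on 2 arrays, ITGAM and NGFR on 1, PDGFRA on 3, and SLC4A1 and the fat cell hormone LEP on 0 of 32. The label of both samples as skeletal muscle fitted the markers, since all tested slow and fast fibre genes were above background on all 32 arrays.

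In the extracellular matrix, 26 of 39 listed genes were tested, 5 of which were higher in the LT and 3 lower (19.2% and 11.5%, the former about that of all genes), with a median of 0.03. THBS4, a thrombospondin of tendon and muscle (0.55 ± 0.57), and the basement membrane collagens COL15A1 (0.50 ± 0.42) and COL4A2 (0.49 ± 0.49) were higher. COL1A1, the main fibrillar collagen, was lower (-0.49 ± 0.84, lower in 11 of 16 cows), a call lost with slide as a random effect (adjusted p 0.145). Control-feature scaling left 3 higher and none lower.

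Genes that the study found to respond to stress in both muscles differed between the muscles of the stressed cows. The study chose this list on these samples, so it is not independent evidence. Of 24 listed 18 were tested, 8 of which were higher in the LT and 3 lower (44.4% and 16.7%, against 20.1% and 24.8% of all genes), with a median of 0.28. In limited stress cows 8 of the 18 were also higher in the LT and 5 were lower, with a median of 0.07. The higher members are therefore not particular to stressed cows. Besides HEYL, PDK4 and MYOG, FOS, an immediate early transcription factor, was higher by 0.894 ± 0.998 (SD, n = 16) in 14 of 16 cows, ranging from 0.23 to 3.52 in the LT (median 2.27) and from -0.70 to 2.60 in the ST (median 1.4). The 3 lower in the LT were PFKFB3, which makes an activator of glycolysis (-0.50 ± 0.61), GADD45A, a growth arrest gene (-0.41 ± 0.47), and ETS2, a transcription factor (-0.22 ± 0.30, all SD, n = 16). The counts were 7 higher and none lower with control-feature scaling, and 7 and 1 with slide as a random effect. Of 22 heat shock genes 13 were tested, 3 of which were higher in the LT and 1 lower (23.1% and 7.69%, the former about that of all genes). CRYAB, alpha-B-crystallin (0.41 ± 0.34), HSPB6, a small heat shock protein (0.39 ± 0.29), and HSPA1A (0.23 ± 0.27) were higher, and HSPA5, the chaperone of the endoplasmic reticulum, was lower (-0.27 ± 0.27, all SD, n = 16). The probe of HSPA1A also stands for its near-identical copy HSPA1B. None of the 4 was called with control-feature scaling.

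The muscle difference was then set beside that of the 16 limited stress cows, which are other animals on the same slides. The 2 groups were not balanced over the slides. The ST slide scanned alone on its day held 6 stressed and 1 limited stress arrays, and another ST slide held 2 and 6. Slide and scan day are thus partly tied to the slaughter condition. In these cows 1795 of the same 3418 genes differed (52.5%), 721 higher in the LT (21.1%) and 1074 lower (31.4%), and 1262 genes differed in the same direction in both groups, 82.3% of the calls in stressed cows and 70.3% of those in limited stress cows. The direction was opposite for 4 genes. The balance of directions in limited stress cows also turned with control-feature scaling, to 1229 higher in the LT and 108 lower, against 279 and 176 in stressed cows. Other genes passed in one group alone, 529 of them in limited stress cows, which does not show that they differ between the groups. Of the 65 genes with a 2-fold difference in stressed cows, 62 were called in the same direction in limited stress cows and 54 reached 2-fold there too. Across genes, which are not independent replicates, the differences of the 2 groups correlated with r = 0.919. The largest differences were alike in size: 4.27 and 4.44 for MYBPH, -3.74 and -4.07 for PVALB, 3.87 and 3.61 for the Hox-C8 probe ENSBTAT00000016117 (stressed and limited stress cows). In the respiratory chain group 44 genes were higher in the LT of limited stress cows, and for the vessel wall 3.

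**Figure D3:**
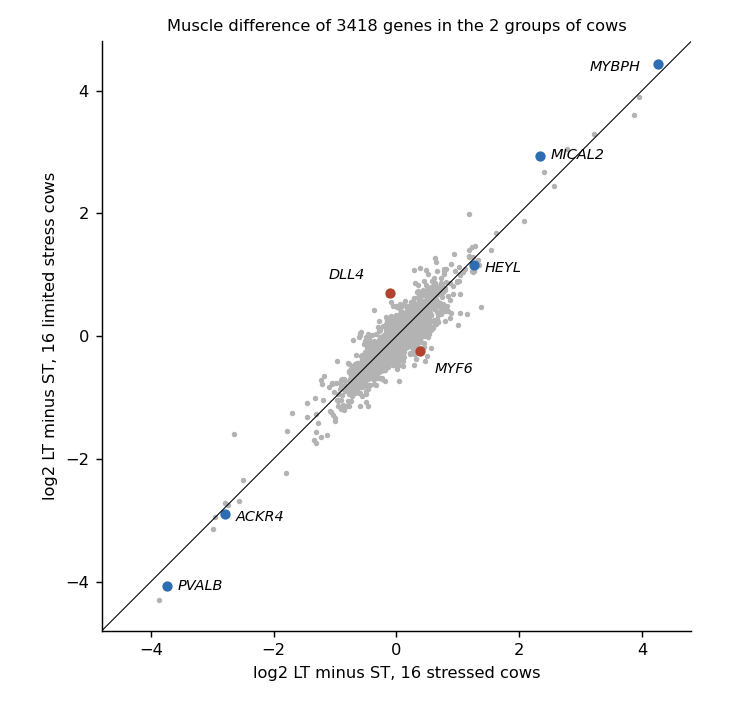
LT minus ST difference on the log2 scale for each of 3418 genes in the 16 stressed cows (horizontal axis) and in the 16 limited stress cows (vertical axis), with the line of equality. Genes with large differences (blue names) lie near the line, and MYF6 and DLL4 (red) lie away from it, at 0.39 and -0.25 and at -0.10 and 0.70.

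The difference between the 2 groups of cows was tested directly on the within-cow muscle differences of all 32 cows, with diet in the model. It passed for 5 of 3450 genes (0.145%), 4 with a muscle difference further towards the LT in stressed cows (0.116%) and 1 further towards the ST (0.029%), and 726 of 10393 probes had an unadjusted p under 0.05. MYF6, the myogenic factor of mature fibres, was higher in the LT of 13 of 16 stressed cows (0.39 ± 0.34, SD, n = 16) and of 3 of 16 limited stress cows (-0.25 ± 0.30, SD, n = 16). Its level in the LT was 1.65 to 3.45 in stressed cows (median 2.50) and 1.44 to 2.52 in limited stress cows (median 1.84), while in the ST the medians were 2.09 and 2.10. The ranges of the 2 groups of cows overlapped in both muscles, and their medians were further apart in the LT. The difference of the differences was 0.64 (SE 0.12; limma, highest adjusted p of 6 probes 0.00669). DLL4, a ligand of Notch, had no muscle difference past the threshold in stressed cows (-0.10 ± 0.46, higher in the LT of 6 of 16) and was higher in the LT of 15 of 16 limited stress cows (0.70 ± 0.51, both SD, n = 16). Its median in the LT was -4.43 in stressed and -3.68 in limited stress cows, against -4.41 and -4.21 in the ST, and the difference of the differences was -0.79 (SE 0.17; limma, adjusted p 0.0270).

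The others carry no gene name. The probe set Target1864 was higher in the LT by 0.31 ± 0.38 in stressed cows and lower by -0.37 ± 0.28 in limited stress cows (SD, n = 16). Its differences ran close to those of MYF6. In stressed cows the lowest and highest of both came from the same animals (-0.43 and 0.81 for Target1864, -0.30 and 0.88 for MYF6). Whether it reads the same transcript was not tested, so the 5 may not be separate genes. Target717 was higher in the LT in both groups of cows, by 0.84 ± 0.24 and 0.40 ± 0.21 (SD, n = 16). The probe A_73_101899 differed by 0.10 ± 0.16 in stressed and -0.22 ± 0.22 in limited stress cows (SD, n = 16). Without the outlying cow the count was 8, with all 5 among them. None of the 5 passed with control-feature scaling (MYF6 0.36, adjusted p 0.545; DLL4 -1.07, adjusted p 0.545), and with slide as a random effect 4 did. Scan day as a random effect was not tried for this comparison. With normexp background correction and quantile normalization 6 genes passed, 2 further towards the LT in stressed cows and 4 further towards the ST, and Target717 (highest adjusted p 0.371) and A_73_101899 (adjusted p 0.189) were not among them.

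**Figure D4:**
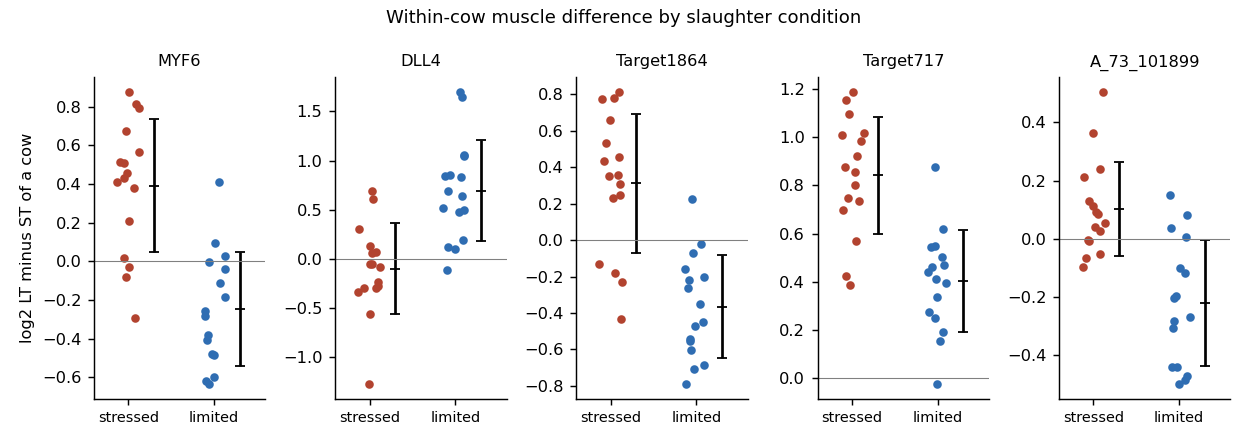
Within-cow LT minus ST difference on the log2 scale (vertical axis, different for each panel) of the 5 genes or probe sets whose difference depended on the slaughter condition, in the 16 stressed (red) and the 16 limited stress cows (blue), with mean and SD in black. For MYF6, 13 of 16 stressed cows lie above 0 and 3 of 16 limited stress cows do, and for DLL4 the counts are 6 and 15.

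Whether the muscle difference depended on the diet was tested in the same way in the 16 stressed cows. No gene of 3418 passed (0%, limma), the lowest adjusted p was 0.991, and 300 of 10289 probes had an unadjusted p under 0.05. The counts were also 0 with normexp background correction and quantile normalization, with control-feature scaling and without the outlying cow. Among the genes with the largest differences, MYBPH differed by 4.21 ± 1.13 on the control diet and 4.36 ± 1.33 on the EP diet, and PVALB by -3.16 ± 2.08 and -4.31 ± 1.43 (SD, n = 8). The diets lay further apart relative to their spread for ANXA9, with 0.90 ± 1.17 on the control diet and 2.18 ± 1.25 on the EP diet (SD, n = 8).

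The last comparison asked whether a cow that stands high for a stress response gene in one muscle also does so in the other. Over the 16 stressed cows, r was positive for all 18 genes (median 0.613), as it was for 91% of all 3418 genes (median 0.475), so a positive r is not particular to the list. Of the 18, 13 passed an adjusted p of 0.05 for r, and 7 passed it for r and rho together (permutation tests with 100000 resamples, two-sided, adjusted over the 18 genes). The share of all 3418 genes that would pass was not computed, so these counts do not set the list apart from other genes. CEBPD, a transcription factor induced by glucocorticoids, had r = 0.881 (adjusted permutation p 2.7e-04) and rho = 0.782 (adjusted permutation p 0.00486), with r = 0.926 on the control diet and 0.743 on the EP diet, and 0.749 and 0.909 over the LT scan days. Without the 2 cows farthest from the median r was 0.770, and without the outlying cow, which was the highest in both muscles, 0.75. LRP4 had r = 0.868 (adjusted permutation p 1.8e-04, from 1e-05, the smallest that these permutations can give) and rho = 0.838 (adjusted permutation p 0.00144), and r = 0.771 without the 2 farthest cows. HES6, a Notch-related regulator of muscle differentiation, had r = 0.866 and rho = 0.732, and HEYL 0.747 and 0.709 (adjusted permutation p for r 4.2e-04 and 0.00410).

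The relation of ETS2 (r = 0.728), SLC16A6 (r = 0.708) and PDK4 (r = 0.623) also passed for both measures (adjusted permutation p from 0.0041 to 0.0257). PDK4 passed for neither without the outlying cow (adjusted permutation p 0.0697 for r and 0.0664 for rho), and ETS2 then passed for r alone (adjusted permutation p for rho 0.0517). For GADD45A r was 0.650 but fell to 0.0328 without the 2 farthest cows and to 0.307 without the outlying cow, so its relation rests on those cows. For FOS (r = 0.291) and GEM (r = 0.256), cows high in one muscle were not detectably high in the other. Without the outlying cow, 9 genes passed for r, all among the 13, and 6 for r and rho, and with control-feature scaling 6 passed for r. Levels of a gene in 2 muscles of a cow share the animal, its slaughter and its diet, but not the array or the slide.

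**Figure D5:**
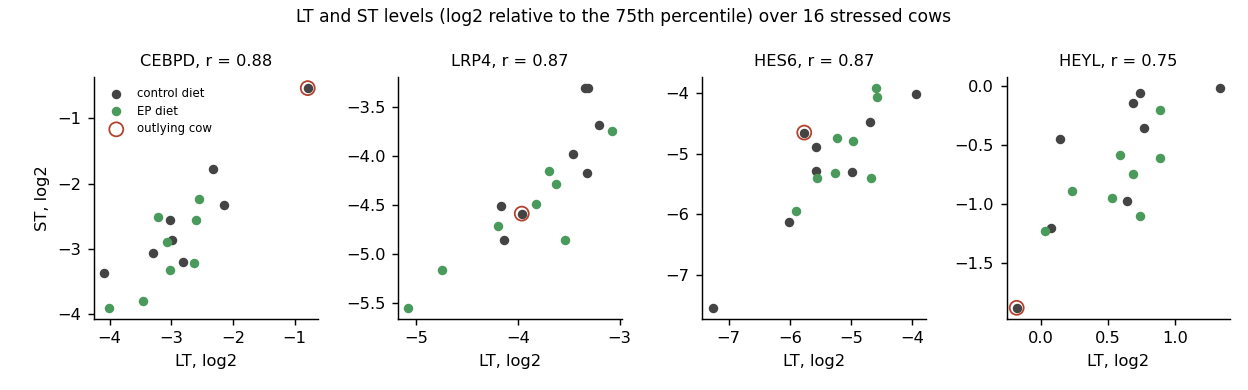
Level in the ST (vertical axis) against level in the LT (horizontal axis), both log2 relative to the 75th percentile of the array, for CEBPD, LRP4, HES6 and HEYL in the 16 stressed cows, coloured by diet and with the outlying cow ringed. The points rise together in all 4 panels (r = 0.88, 0.87, 0.87 and 0.75), and the outlying cow lies at the upper end for CEBPD and at the lower end for HEYL.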

How the data were processed

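The authors hybridised Cy3-labelled RNA to single-colour Agilent arrays. The deposited intensities are, from the headers, signals of Feature Extraction 10.1.1.1, background-subtracted and detrended, with probes placed on the build Btau_3.1, and the deposited table holds the same intensities for all 64 arrays with no scaling between them. Here the log2 intensity was set relative to the array's 75th percentile of spots that are not controls. Spots that the software called uneven or outlying were left out (486 of 329250 values of the tested probes, so that 442 probes had under 16 cows). Control features lay near background, so the scaling to their median was kept as an alternative.

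A probe was tested where 8 or more of the 16 LT or of the 16 ST arrays had it well above background. The LT minus ST difference of each cow was tested with limma 3.58.1 in R 4.3.3, two-sided, with Benjamini-Hochberg adjustment over the probes, and compared in the same way between diets and between slaughter conditions. The value of a gene is the mean over its probes and its adjusted p the highest over them. Of the custom probe sets, 943 took the name of the 1 gene whose probes share at least 25 bases with theirs and 1017 stayed without a name, and the RefSeq table given updated names of the files. A symbol in brackets in a probe's description was used where the name held none (MYH4), and descriptions without one were read for HES6, LRP4 and CEBPD of the stress list and for no other list. The description of CDIPT, a gene in none of the lists, was read as well.

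Both muscles of an animal carry its number in the labels, which gives the pairing, and deviations from the muscle means correlated positively within all 16 cows (r from 0.141 to 0.789). On simulated data the muscle comparison recovered 32%, 76%, 96% and 100% of genes changed by 0.2, 0.4, 0.8 and 1.6 (log2) and called 8 of 3218 unchanged genes. The comparison of slaughter conditions recovered 26%, 62%, 84% and 98% and called 7 of 3250. Both simulations changed 50 genes by each amount and held no effect of slide or scan day. Their counts of unchanged genes called are therefore not error rates of the real comparisons.

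The named genes are the 10 called genes with a symbol and the largest difference in each direction (a gene too dim in a muscle was set against the lowest signal well above background there), up to 4 called members of each list, members whose role needed stating, the 5 with the smallest spread relative to the difference, and those that depended on diet or stress. Others are said to be chosen after their values were seen. Comparisons, gene lists and the rule were chosen with earlier results of these data known, and the alternatives without the outlying cow after seeing the data. The number of cows limits the precision. The results of some genes of the lists are not reported here.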

Additional observations from a re-analysis of the deposited data

Results flagged for a closer look

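In 5 genes or probe sets the LT minus ST difference of stressed cows differed from that of limited stress cows in a test of that difference (limma, all 32 cows). The difference of the differences, stressed minus limited stress cows, was 0.64 for MYF6, 0.68 for Target1864, 0.44 for Target717 and 0.32 for A_73_101899 on the log2 scale. It was -0.79 for DLL4. The median difference of the limited stress group was exceeded by 15 of 16 stressed cows for MYF6 and Target1864, by 14 for Target717, by 16 for A_73_101899 and by 1 for DLL4. Groups of 16 cows were too large for the outlier test used elsewhere.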

How the results depend on the processing

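The count of 1533 genes that differed between the muscles was 1050 with no replicate block, that is with the arrays not paired by cow, and 1192 with slide as a random effect. It was 968 with scan day as a random effect, 455 with control-feature scaling and 881 at an adjusted p of 0.01. With 8 cows each, it was 775 on the control diet alone and 1094 on the EP diet alone. The other settings gave 1265 to 1987. The 65 genes with a 2-fold difference were 35 with normexp and quantile normalization and 57 to 81 in the other settings. The 5 genes whose difference depended on the slaughter condition were 0 with no replicate block, 0 with control-feature scaling and 8 without the outlying cow. The relation of the muscles over cows passed for 6 of 18 genes with control-feature scaling, against 13. The genes followed through the settings included 86 called ones, but not every gene named in the text. PFKFB3, GADD45A, ETS2, NDUFB1 and JAG2, for example, were not followed. None of the 86 reversed in any setting, and control-feature scaling took the call from 24 of them and scan day as a random effect from 13. Among those not called, MYH7 was -0.12 with the custom probe sets kept apart, and MYOD1 was 0.0081 with control-feature scaling, 0.0277 with no scaling and 0.0283 on the control diet alone. The cause of these changes was not tested.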

Other observations

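Some further genes with a 2-fold difference between the LT and the ST of the stressed cows are named here after their values were seen. JAG2, a Notch ligand, was lower in the LT by -1.05 ± 0.72 and NPPC, a natriuretic peptide, was higher by 1.18 ± 0.66 (SD, n = 16). MT2A, a metallothionein, was lower by -1.07 ± 0.42 and SPARCL1, a matrix protein, was higher by 1.04 ± 0.34 (SD, n = 16). TECRL was higher by 1.185 ± 1.08 and CCR10, a chemokine receptor, was lower by -1.04 ± 0.91 (SD, n = 16).

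Some probes are known only by a name or a description in the files. The probe named FS_MYBPH was higher in the LT by 2.41 ± 0.88 and the probe named FS_PVALB was lower by -3.86 ± 1.84, each in 16 of 16 cows. For ENSBTAT00000008422, described as fast troponin T and called in stressed cows, the difference of 0.48 ± 1.45 in limited stress cows did not pass, and the difference between the groups of cows did not pass either. LOC614107, described as similar to hexokinase-2, was lower in the LT of 15 of 16 cows by -0.95 ± 0.54 (all SD, n = 16). Among probe sets without a name, Target1005 had no overlap of the muscles and was lower in the LT by -2.99 ± 0.28, and Target785 was higher by 2.56 ± 0.49 (SD, n = 16).

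In stressed cows CHRNA1 was higher in the LT by 1.01 ± 0.71 on the control diet and 1.68 ± 0.52 on the EP diet, and MYH3 was lower by -0.65 ± 1.31 and -1.78 ± 1.92 (SD, n = 8), differences between diets that did not pass in the test of all genes.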
